A study of Drosophila melanogaster with 2 samples.

Results

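The genes described here are 10 genes of the c-Jun N-terminal kinase (JNK) pathway and its response, out of 13989 genes in a table of larval wing disc expression from Drosophila melanogaster. They were taken by gene symbol as egr, msn, slpr, hep, bsk, Jra, kay, puc, scaf and Ets21C, and all 10 were present. RNA sequencing was done on wing discs, the epithelial sacs of wandering third-instar larvae from which adult wings and dorsal thorax develop. The GFP_Tai group carried the engrailed (en) driver with transgenes for green fluorescent protein (GFP) and Taiman (Tai), a transcriptional coactivator that works with the ecdysone receptor. The GFP group carried the same driver with the GFP transgene alone. Both groups therefore shared driver and GFP, and larvae of both were picked by their GFP fluorescence. The en driver is active in the posterior compartment, while 80 to 100 whole discs were pooled per genotype, so that every value averages driver-expressing and other cells, and a change in the number of cells of a kind cannot be told apart from a change in RNA per cell. The series design speaks of triplicates, but the table holds 1 value per gene and genotype (each such set of values is called a library here), so the spread between replicates is unknown for every difference given here, and the genotypes were not tested against each other.

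JNK signaling is a cascade of kinases that answers tumor necrosis factor (TNF) signals, stress and tissue damage. Its end kinase activates the transcription factor AP-1, a pair of Jun and Fos proteins. In Drosophila it moves epithelial sheets in dorsal closure of the embryo and thorax closure of the discs, and drives cell death, wound repair and regeneration in wing discs. Activation of JNK itself is a phosphorylation that a transcript level does not measure, and transcription of response genes such as puc is its usual readout.

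Levels are given in FPKM (fragments scaled by transcript length and by the total of the library), which allows genes to be compared within a library. Differences are log2 of (GFP_Tai FPKM + 1) over (GFP FPKM + 1), and ratios are plain FPKM ratios of GFP_Tai over GFP. The Taiman transgene was visible in the libraries, with tai at 879 FPKM in GFP_Tai and 27.1 FPKM in GFP, while the driver gene en had 46.8 FPKM in GFP_Tai and 43.2 FPKM in GFP. The whole-fragment steps of low values gave an estimated depth of 10608021 fragments in GFP_Tai and 8118683 in GFP. Each 95% interval of a ratio below comes from the estimated fragments of the gene, covers counting error only and compares these libraries, not the genotypes. All 11 wing disc markers listed (such as nub, Dll and hth) were above an FPKM of 1, with a median difference of -0.04. In GFP_Tai 3 of them were higher and 8 lower, where 46.2% of all genes past that FPKM were higher. The largest difference was that of eyg, with 11.8 FPKM in GFP_Tai and 16.7 FPKM in GFP (ratio 0.707, 95% counting interval 0.604 to 0.832).

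Of the JNK genes, the response gene scaf stood 2.29-fold higher in GFP_Tai, and puc and the Fos gene kay had ratios of 1.47 and 1.36. The 4 kinase genes had nearly equal values in both libraries. All 10 genes were above the minimum of 1 FPKM in at least 1 genotype. By the 2-fold threshold, 1 of the 10 was higher in GFP_Tai and 0 were lower, where 6.31% of the 8275 genes above the minimum were higher and 1.81% were lower. At 1.5-fold the count was still 1 of 10, against 9.82% of all genes, and 0 of 10 were 1.5-fold lower, against 3.93% of all genes, so the share of the pathway past either threshold was near that background. The median difference of the 10 genes was 0.18, beside -0.02 over all genes above the minimum. A higher value of any size was found in 8 of the 10, against 46.2% of all genes.

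**Figure D1:**
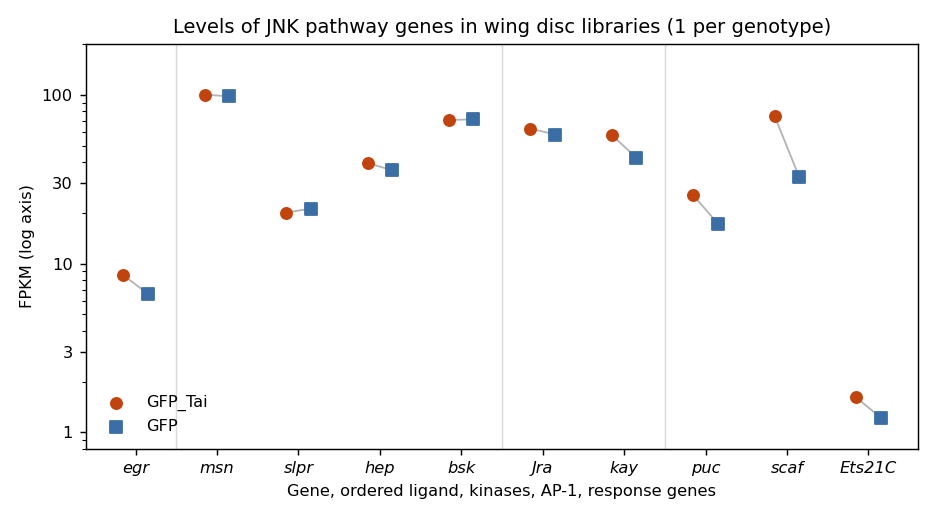
FPKM (log axis) of the 10 JNK genes in the GFP_Tai library (circles) and the GFP library (squares), 1 value per gene and genotype with no error available, with grey lines joining the values of a gene. The points of msn, slpr, hep and bsk lie close to level, while scaf is at 74.5 in GFP_Tai and 32.6 in GFP.

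The pathway starts with egr (Eiger, FBgn0033483, 2R:10078366-10084210 in BDGP6, plus strand), the TNF ligand that can switch on JNK in imaginal discs. It was a low transcript, with 8.54 FPKM in GFP_Tai and 6.64 FPKM in GFP. About 175 fragments in GFP_Tai and 104 in GFP gave a ratio of 1.29, with 95% counting bounds of 1.005 and 1.66. The difference of 0.32 on the log2 scale was matched or exceeded by 16.1% of the genes above the minimum. Blood cells are a known source of egr, and all 9 hemocyte markers listed had higher values in GFP_Tai, with a summed level of 86.7 FPKM in GFP_Tai and 62.1 FPKM in GFP. None of the 9 markers was listed at 0, and their median difference was 0.43. The largest was 1.60 for NimC1, a phagocytosis receptor gene. NimC1 was the only one past 2-fold, beside 6.31% of all genes (0 at a minimum FPKM of 5 or a pseudocount of 5, and 2 with a pseudocount of 0.1). The part of blood cells in the value of egr was not tested.

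The kinases downstream were expressed at moderate to high levels that hardly differed between the libraries. The gene msn (misshapen, FBgn0010909, 3L:2554847-2586540, minus strand), for a kinase at the head of the cascade, was the most abundant of the 10 genes, with 100.2 FPKM in GFP_Tai and 97.9 FPKM in GFP. The gene slpr (slipper, FBgn0030018, X:8170229-8177185, minus strand), for the next kinase, had 20.1 FPKM in GFP_Tai and 21.2 FPKM in GFP. Its level was 0.200 times that of msn in GFP_Tai and 0.216 times in GFP. The gene hep (hemipterous, FBgn0010303, X:13079205-13090434, minus strand), for the kinase that phosphorylates JNK, had 39.4 FPKM in GFP_Tai and 35.8 FPKM in GFP. The gene bsk (basket, FBgn0000229, 2L:10247502-10250501, minus strand), which encodes JNK itself, had 70.8 FPKM in GFP_Tai and 71.6 FPKM in GFP.

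These levels give ratios close to 1 for the kinases. The ratio was 1.02 for msn (95% counting interval 0.978 to 1.07), 0.949 for slpr (0.864 to 1.04) and 0.989 for bsk (0.899 to 1.09), and each of these intervals included 1. That of hep was 1.10 with an interval of 1.00 to 1.21, whose lower bound lay barely above 1 (1.03 with the longest annotated transcript of hep). The interval of msn, the narrowest, rested on an estimated 4311 fragments in GFP_Tai and 3223 in GFP. Differences of the 4 kinases ran from -0.07 to 0.13 with a median of 0.01, and their levels summed to 230.5 FPKM in GFP_Tai and 226.5 FPKM in GFP.

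The AP-1 genes differed from each other in how close their 2 values lay. The Jun gene Jra (FBgn0001291, 2R:10096480-10098556, plus strand) had 63.1 FPKM in GFP_Tai and 58.2 FPKM in GFP, a ratio of 1.09 with an interval of 0.977 to 1.20 that included 1. The Fos gene kay (kayak, FBgn0001297, 3R:29765995-29794113, plus strand) had 57.8 FPKM in GFP_Tai and 42.4 FPKM in GFP. Its ratio of 1.36 had 95% counting bounds of 1.26 and 1.47, at about 1826 fragments in GFP_Tai and 1026 in GFP. The difference of 0.44 for kay was matched or exceeded by 12.4% of genes above the minimum. Since kay and Jra proteins pair in AP-1, their transcript levels were also set against each other, and kay was at 0.915 times the level of Jra in GFP_Tai and 0.729 times in GFP.

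Among the response genes, puc (puckered, FBgn0243512, 3R:8105332-8122294, plus strand) encodes the phosphatase that inactivates Bsk and so closes a negative feedback loop. It had 25.4 FPKM in GFP_Tai and 17.3 FPKM in GFP. About 591 fragments in GFP_Tai and 308 in GFP gave a ratio of 1.47 (95% counting bounds 1.28 and 1.69), and 10.7% of genes above the minimum had a difference as high or higher than its 0.53. Against the level of its substrate gene bsk, puc stood at 0.359 times in GFP_Tai and 0.241 times in GFP.

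The gene scaf (scarface, FBgn0033033, 2R:5676750-5691723, minus strand) encodes a secreted protein like a serine protease that acts downstream of JNK in dorsal closure. It had 74.5 FPKM in GFP_Tai and 32.6 FPKM in GFP. The ratio of 2.29 had 95% counting bounds of 2.10 and 2.49, at about 2237 fragments in GFP_Tai and 749 in GFP, so that the whole interval lay above 2. Its difference of 1.17 was matched or exceeded by 444 genes, 5.37% of those above the minimum. In order of level among the 10 genes, scaf came after msn alone in GFP_Tai and was in position 6 in GFP, where msn, bsk, Jra, kay and hep were higher. The order of the other 9 genes was the same in both libraries except that puc was above slpr in GFP_Tai and below it in GFP. No spread between replicates was available to say which neighbours in that order differ.

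The transcription factor gene Ets21C (FBgn0005660, 2L:544925-552923, minus strand), of the ETS family, is known to be induced with JNK in damaged or tumorous discs. It was the lowest of the 10 genes, with 1.61 FPKM in GFP_Tai and 1.22 FPKM in GFP. An estimated 24 fragments in GFP_Tai and 14 in GFP gave a ratio of 1.32 with an interval of 0.652 to 2.74, so that neither equal values nor a 2-fold difference lay outside counting error. With the longest annotated transcript in place of the shortest, the estimate was 73 fragments in GFP_Tai and 42 in GFP, and the interval of 0.898 to 1.99 still included 1 but ended just under 2. A difference between the libraries was not detectable for Ets21C at this depth with either length.

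**Figure D2:**
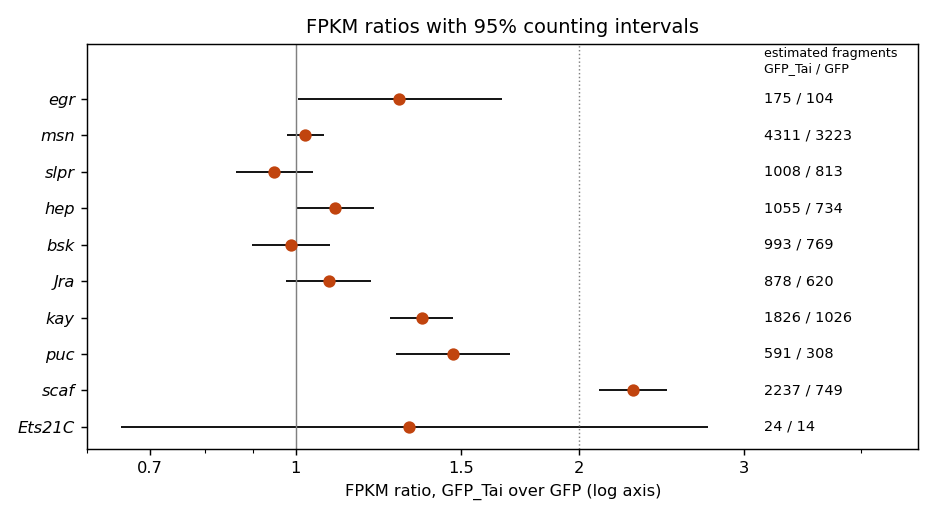
FPKM ratio of GFP_Tai over GFP (log axis) for the 10 JNK genes, with lines for the 95% counting interval, which covers counting error only, and the estimated fragments of each library at the right. The solid line marks equal values and the dotted line 2-fold; the interval of scaf lies above 2 and those of msn, slpr, bsk, Jra and Ets21C include 1.

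Counting intervals lay above 1 for 5 of the 10 genes (egr, hep, kay, puc and scaf) and below 1 for 0. The same held for 20.5% of the 7926 genes above the minimum that had an interval, and 23.9% lay below 1, so an interval that leaves out 1 was common in these libraries. The lower bounds of egr and hep were within 0.01 of 1. In the authors' deposited table, all 10 genes were tested and 0 were called at q under 0.05, with p from 0.179 for scaf to 0.986 for bsk and a q of 0.9995 for each. The authors' deposited table called 11 of 8374 tested genes, or 0.131%, all of them higher in GFP_Tai.

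**Figure D3:**
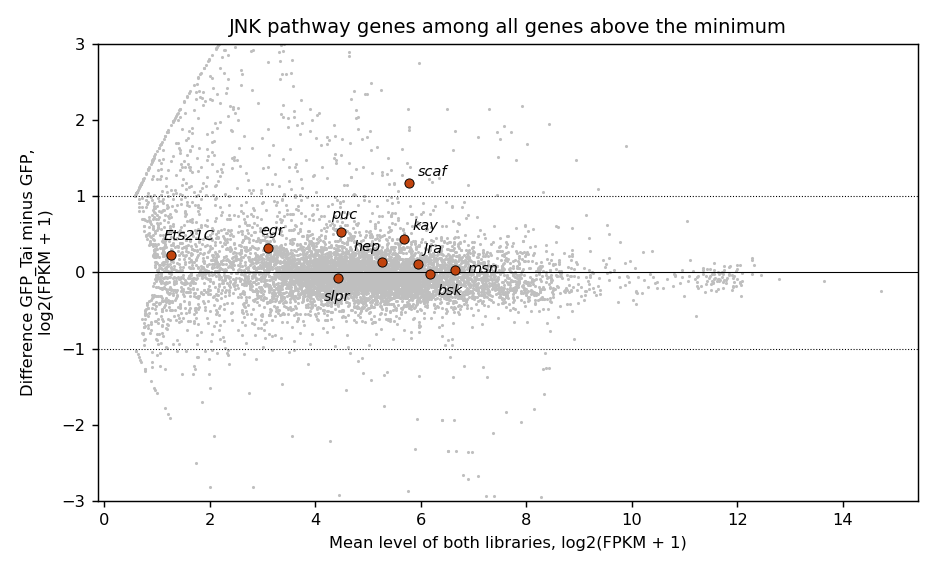
Difference between GFP_Tai and GFP against the mean level of both libraries, both on the log2(FPKM + 1) scale, for 8098 genes above the minimum (grey, 177 genes beyond ±3 not drawn) and the 10 JNK genes (red). Dotted lines mark 2-fold, and scaf, at a difference of 1.17, is the only red point outside them.

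The genes lie on 5 chromosome arms, and egr and Jra are near neighbours on 2R, 12269 bp apart with 2 protein-coding genes between them. The protein-coding genes next to scaf had differences of 0.17 and 0.07. They were kune, a claudin gene, with 204.9 FPKM in GFP_Tai and 182.5 FPKM in GFP, and Cndp2 with 71.3 FPKM in GFP_Tai and 67.9 FPKM in GFP. The genes beside puc had lower values in GFP_Tai, with differences of -0.56 for CG7900 and -0.22 for CG7878. Some values can hold fragments of an overlapping gene, since the labels do not say that counting used strand. The end of Jra overlaps RpLP0-like on the opposite strand by 39 bp, and that gene had 102.9 FPKM in GFP_Tai and 131.3 FPKM in GFP. Ets21C overlaps nAChRbeta3, an acetylcholine receptor subunit gene on the opposite strand, by 1968 bp, and that gene had 1.96 FPKM in GFP_Tai and 1.04 FPKM in GFP. The gene fig, inside kay, was listed at 0 in both libraries. Noncoding RNA genes on the opposite strand, for which no value was found, overlap puc by 1305 bp and kay by 728 bp. Small RNA genes on the opposite strand, also with no value found, overlap egr by 70 to 138 bp each. The gene slpr overlaps CG2278 by 38 bp on the same strand, and CG2278 had 2.80 FPKM in GFP_Tai and 3.05 FPKM in GFP. These neighbours were named after their values were seen.

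Genes that feed or restrain the cascade were compared next, as a list of 29 inputs and regulators. Of the 27 above the minimum, 0 were 2-fold higher and 0 lower, beside 6.31% and 1.81% of all genes. A higher value in GFP_Tai was found in 15 and a lower value in 12, beside 46.2% of all genes higher. The median difference was 0.01. The largest difference was that of grnd (Grindelwald), a receptor for Eiger, with 84.9 FPKM in GFP_Tai and 63.4 FPKM in GFP (ratio 1.34, 95% counting interval 1.23 to 1.46). The other Eiger receptor gene, wgn (wengen), had 22.3 FPKM in GFP_Tai and 19.97 FPKM in GFP, and its interval of 0.974 to 1.28 included 1. The kinase genes Tak1 and Mkk4, which act beside slpr and hep, had ratios of 1.06 and 1.08 with intervals that included 1. The scaffold gene Cka, which links the kinases to AP-1, had 56.3 FPKM in GFP_Tai and 69.9 FPKM in GFP (ratio 0.805, interval 0.749 to 0.866). The JNK antagonist gene raw had 18.7 FPKM in GFP_Tai and 22.7 FPKM in GFP (ratio 0.827, interval 0.735 to 0.929). The GTPase gene Mtl had a ratio of 1.19, with 40.6 FPKM in GFP_Tai and 34.1 FPKM in GFP.

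Further genes that respond to JNK or to tissue damage were taken as a list of 23. Of the 22 above the minimum, 1 was 2-fold higher and 0 were lower, beside 6.31% and 1.81% of all genes, so the count was no larger than that background. A higher value of any size was found in 17 of the 22, beside 46.2% of all genes, and the median difference was 0.26, beside -0.02. The 2-fold higher gene was mol, which encodes a maturation factor of the dual oxidase, with 7.44 FPKM in GFP_Tai and 2.04 FPKM in GFP (ratio 3.65, 95% counting interval 2.43 to 5.57). The authors' own deposited test did not call mol, with a p of 0.608 and a q of 0.9995. The lipocalin gene NLaz, a JNK target in stress defence, had 1.35 FPKM in GFP_Tai and 0.176 FPKM in GFP. Only an estimated 10 fragments in GFP_Tai and 1 in GFP stand behind that ratio of 7.65, with an interval of 1.09 to 332. The gene Ilp8, for the relaxin-like hormone by which damaged discs delay metamorphosis, had 1.296 FPKM in GFP_Tai and 0.188 FPKM in GFP, from an estimated 9 and 1 fragments, and its ratio of 6.89 had an interval of 0.954 to 302 that included 1. The small heat shock gene l(2)efl had the lower value in GFP_Tai, with 1.45 FPKM in GFP_Tai and 3.31 FPKM in GFP. From an estimated 8 and 14 fragments, its ratio of 0.437 had an interval of 0.159 to 1.12 that included 1.

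Genes of that list with more fragments had ratios mostly above 1, and of these only cher had a counting interval below 1. In that list, intervals above 1 made up a larger share than the 20.5% found over all genes with an interval, of which 23.9% lay below 1. The matrix protease gene Mmp1, an AP-1 target in discs, had a ratio of 1.48 with an interval of 1.34 to 1.64, close to that of puc. The filamin gene cher, named after its values were seen, had 57.9 FPKM in GFP_Tai and 76.5 FPKM in GFP, a ratio of 0.757 with an interval of 0.710 to 0.808. The cytokine gene upd3, which JNK induces in wounded discs, was under the minimum at 0.797 FPKM in GFP_Tai and 0.368 FPKM in GFP. The death genes hid and rpr, which JNK can switch on, had ratios of 1.53 (interval 1.38 to 1.70) and 1.20 (interval 0.965 to 1.499). On the log2 scale with its pseudocount of 1, scaf (1.17) and mol (1.47) therefore passed 2-fold, NLaz (0.997) and Ilp8 (0.95) lay just under it, and puc (0.53), Mmp1 (0.55) and hid (0.60) had differences near each other. With a pseudocount of 0.1, which leaves low genes less damped, 4 genes of the damage response list were higher and 1 was lower, beside 7.83% and 2.68% of all genes.

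For comparison, the genes of the other mitogen-activated kinase modules, ERK and p38, had 0 of 10 genes past 2-fold in either direction. Among all genes above the minimum, 6.31% were 2-fold higher and 1.81% lower, so this count was near that background. The median difference of these modules was -0.09. The ERK gene rl had the largest difference, with 116.4 FPKM in GFP_Tai and 89.7 FPKM in GFP (interval of the ratio 1.19 to 1.41). The kinase genes Raf and lic had ratios of 0.845 and 0.855 with intervals below 1. The gene p38c, at 1.55 FPKM in GFP_Tai and 1.14 FPKM in GFP, had an interval that included 1. Of 7 further ETS family genes, 5 were above the minimum and 0 of these passed 2-fold, beside the same shares of all genes. Their median was 0.21. Ets98B had the largest difference, 0.62, with 8.04 FPKM in GFP_Tai and 4.87 FPKM in GFP. The ETS repressor gene aop had a ratio of 1.21 (interval 1.14 to 1.30). Ets97D had 1.16 and the ecdysone-induced Eip74EF had 0.944, each with an interval that included 1.

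**Figure D4:**
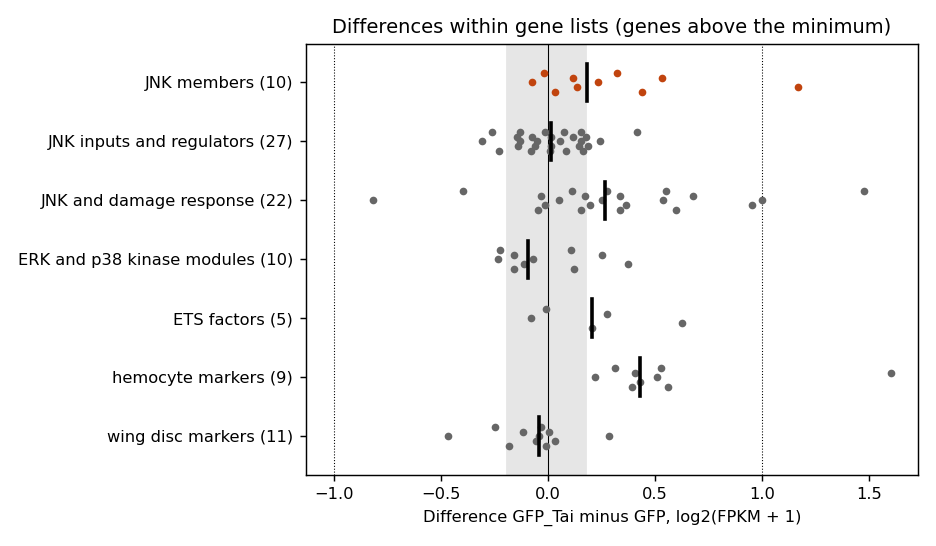
Differences between GFP_Tai and GFP on the log2(FPKM + 1) scale for genes above the minimum, 1 point per gene, in gene lists (number of genes in parentheses); black bars are list medians, the grey band spans the lower to the upper quartile of all genes and dotted lines mark 2-fold. The medians of the JNK genes and of the damage response genes are 0.18 and 0.26, and that of the inputs and regulators is 0.01.

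Markers of other tissues that dissected discs can hold were examined beside these values. Myoblast markers, for the muscle precursors attached to the disc, had 0 of 6 genes past 2-fold, beside 6.31% of all genes higher and 1.81% lower. Their median was -0.05, and their summed levels were 78.7 FPKM in GFP_Tai and 83.9 FPKM in GFP. Of 7 trachea markers 3 were 2-fold higher, beside 6.31% of all genes. These were the chitin-matrix genes Gasp, serp and verm, with differences of 1.84, 1.51 and 1.47. The other trachea markers had ratios of 0.995 for btl, 0.949 for trh, 0.870 for dys and 1.15 for bnl (interval 0.814 to 1.63). The list had a median of 0.14, or 1.47 at a minimum FPKM of 5. Of 8 fat body and gut markers 4 were 2-fold higher, beside 6.31% of all genes. Among them, the gut protease genes Jon65Aiii, Jon65Aiv and yip7 were listed at 0 in GFP and at 85.0, 121 and 77.1 FPKM in GFP_Tai. The fat body genes had ratios from 1.32 for Lsp2 to 4.05 for Lsp1beta. The list median was 0.97 (3.86 at a minimum FPKM of 5, and 0.42 with 1 gene higher when genes listed at 0 were left out). Summed levels of the list were 312 FPKM in GFP_Tai and 18.7 FPKM in GFP. Of 5 neuron and glia markers 2 were above the minimum, elav and moody, with differences of -0.33 and 0.35. Neither the part of these tissues nor that of hemocytes in the values of scaf, puc, kay or mol was tested.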

How the data were processed

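Wing disc RNA was depleted of ribosomal RNA and sequenced as 1 sample per genotype, per the labels' protocols. Cuffdiff 2.2.1, TopHat2 2.0.12, CASAVA 1.4 and dm6 are named, without roles, in the submitters' processing notes. Not given in the sources used here are the annotation and how replicates were combined. The authors deposited FPKM values, 1 per gene and genotype, and, per the file headers, their own test's p-value with its q-value.

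The table's loci lay off dm6 (4112496 bp for Jra), so coordinates came from the BDGP6 annotation (Ensembl release 115) by symbol or older name; 13442 of 13989 genes matched. Differences used a pseudocount of 1, which understates those of low genes. Genes under 1 FPKM in both genotypes were left out. Alternatives were pseudocounts of 0.1 and 5, a minimum of 5 or none, removal of genes listed at 0, centring on the median, and 1.5-fold and 3-fold thresholds. A count was taken as moved beyond 1.5 times its value, a list median beyond 0.1 and a gene's difference beyond what its counting interval spans to either side.

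Depth came from 304 genes that shared an FPKM ratio of 0.765, taken as equal fragments. In 37 single-transcript genes this gave the step of 1 fragment, with 213 nt taken off each length. Of low genes, 71.3% (GFP_Tai) and 74.1% (GFP) then came out whole within 0.1. Not all did, so fragments are estimates, and no count test was run. Intervals are exact binomial (Clopper-Pearson), with each gene's shortest annotated transcript, which gives the fewest fragments. Computations ran in Python 3.11.15 with scipy 1.17.1 and were tested on simulated data.

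Named genes were the 10 genes, up to 4 genes per other list with the largest absolute difference, and grnd, wgn, Tak1, Mkk4, Mmp1, Ilp8, upd3, rpr, hid, tai and en. The markers btl, trh, bnl, Col4a1, crq, eater and Lsp2 were named besides, after their values were seen. Members and lists were chosen with earlier results of these data known.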

Additional observations from a re-analysis of the deposited data

How the results depend on the processing

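The number of JNK genes at least 2-fold higher (1, scaf) held at 1.5-fold and under every alternative except the 3-fold threshold, where it was 0, and scaf kept a difference of 1.08 to 1.19. The other differences ranged from 0.22 to 0.36 for egr, 0.40 to 0.46 for kay, 0.45 to 0.55 for puc and 0.09 to 0.37 for Ets21C, and bsk alone changed sign, from -0.02 to 0.01 after centring. Over all genes, the 522 higher genes became 813 at 1.5-fold, 324 at 3-fold and 284 under a pseudocount of 5. The 150 lower genes became 325, 87 and 97 under those settings, and 96 without genes listed at 0. In the damage response list, the 1 higher gene was 4 with a pseudocount of 0.1, 0 with a pseudocount of 5, 2 after centring, 5 at 1.5-fold and 0 at 3-fold, and the 0 lower genes were 1 with a pseudocount of 0.1 and 1 at 1.5-fold. Of the ETS genes, 1 was higher at 1.5-fold, and their median was 0.00 with no minimum. Changes of threshold or of the genes kept alter counts by construction; otherwise the cause was not tested. In all, 45 results had 317 values under other settings, of which 286 moved by less than their limit and 31 by more. No difference past 2-fold changed sign, but the median of the neuron and glia markers (0.01) was -0.33 at a minimum FPKM of 5, 0.35 with no minimum and -0.02 with a pseudocount of 5. The medians of the trachea markers and of the fat body and gut markers reached 1.47 and 3.86 at a minimum FPKM of 5, and the hemocyte median ranged from 0.24 to 0.59. No paired analysis was possible because there is 1 library per genotype. Few fragments (an estimated 24 or fewer per library) stand behind Ets21C, NLaz, Ilp8, upd3, l(2)efl, p38c and He.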
